A study of Mus musculus with 15 samples.

Results

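Collagens are built from chains that each come from a gene of their own, and 44 of the 55416 genes in the deposited tables carry a symbol of the form Col, number, a, number and nothing more. These 44 genes were grouped by the kind of assembly their chains form: 11 fibrillar, 6 type IV (basement membrane), 6 type VI (beaded filament), 9 FACIT, 3 network (types VIII and X), 2 multiplexin, 4 transmembrane and 3 others. Of the 44 genes, 34 had enough counts to be tested for differences between groups, and 10 did not.

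As background, collagen chains wind together into a triple helix inside the cell, are secreted, trimmed and cross-linked, and then form fibres, sheets or filaments outside it. In skeletal muscle, fibrillar types I, III and V make the strands of connective tissue around fibres and bundles, type IV makes the sheet of the basement membrane that wraps every fibre and capillary, and type VI filaments link both. FACIT chains lie on the surface of fibrils, and multiplexins sit at the border of basement membrane and stroma. Fibroblasts are the main makers of the fibrillar and type VI chains in muscle, while fibres, endothelial cells and mural cells also make type IV.

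Bulk RNA of a shin muscle, the tibialis anterior, was sequenced in male C57BL/6 mice (C57BL/6NCrlOri) aged 6 to 8 weeks. In 3 of the 4 groups the mice had been given KrasIKKaL tumour cells through the windpipe, and they then received anti-PD-L1, which blocks a checkpoint ligand of T cells (200 µg per kg, n = 3), anti-CD8a, which binds a surface protein of cytotoxic T cells (200 µg, n = 3), or an isotype rat IgG2b, here called IgG (n = 4). The treatment label of this last group reads anti-IgG and its titles read IgG, and it was taken to be the isotype group of the treatment protocol. The anti-PD-L1 and anti-CD8a antibodies were injected into the abdomen 3 times a week. Control mice had no tumour, and the labels name no antibody for them (n = 5), so tumour and injected antibody cannot be told apart in any comparison with control. The series states its purpose as a search for targets in cachexia (cancer-related muscle wasting) and in immune side effects on muscle.

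The libraries held 15894804 to 22459348 counts, and the replicates of a group differed by more than counting noise. No label ties a library to its own animal, so p-values measure the spread between these libraries. Levels are given as CPM (counts after scaling every library to the same size) where a gene is compared across samples, and as TPM, a scale corrected for transcript length, where genes are compared with each other. Mitochondrially encoded transcripts made up 12.8% ± 1.68 of counts in anti-PD-L1, 21.3% ± 1.53 in anti-CD8a, 14.5% ± 1.69 in IgG and 20.5% ± 2.27 in control (SD). The 6 muscle fibre markers, among them skeletal actin Acta1 and creatine kinase Ckm, were present in every library and summed to 50324 to 109968 CPM. The part of the mitochondrial share in the results was not tested.

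Collagen transcripts together reached 76.8 ± 27.8 TPM in anti-PD-L1, 117 ± 28.5 TPM in anti-CD8a, 50.4 ± 5.33 TPM in IgG and 216 ± 42.4 TPM in control (SD). The ranges of IgG, at 46.2 to 57.7 TPM, and of control, at 171 to 264.5 TPM, lay far apart. Anti-CD8a libraries, at 85.7 to 141 TPM, lay between them, and anti-PD-L1 libraries, at 55.0 to 108 TPM, reached into the IgG range. In bulk muscle, fewer collagen-making cells and less collagen RNA per cell cannot be told apart.

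The order of the genes by level per length differed between groups. In control the most abundant chains were Col3a1 (53.3 ± 14.1 TPM), Col1a2 (31.5 ± 5.36 TPM), Col4a1 (25.8 ± 7.58 TPM) and Col1a1 (15.8 ± 3.88 TPM). The ranges of Col3a1, at 40.1 to 72.3 TPM, and of Col1a2, at 24.4 to 39.1 TPM, did not overlap in control, while Col1a2 overlapped Col4a1, at 17.5 to 36.5 TPM. In IgG the order was led by the basement membrane pair Col4a1 (16.2 ± 0.903 TPM) and Col4a2 (9.32 ± 0.896 TPM), and Col3a1 averaged 2.01 ± 1.28 TPM. Anti-PD-L1 had the same leading pair, with Col4a1 at 20.1 ± 5.04 TPM and Col4a2 at 9.57 ± 2.93 TPM, whereas anti-CD8a was led by Col3a1 (21.7 ± 13.1 TPM) and Col1a2 (19.6 ± 8.52 TPM), followed by Col4a1 at 13.5 ± 3.70 TPM. In anti-PD-L1 the ranges of Col4a1, at 14.6 to 24.4 TPM, and Col4a2, at 6.91 to 12.7 TPM, did not overlap, whereas Col4a2 overlapped Col1a2, which came next at 4.50 to 15.9 TPM. Within anti-CD8a the ranges of Col3a1, Col1a2 and Col4a1 overlapped. Anti-CD8a replicate 3 had another order, led by Col4a1 at 17.7 TPM, with Col1a2 at 10.07, Col4a2 at 9.46 and Col3a1 at 6.68 TPM.

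**Figure D1:**
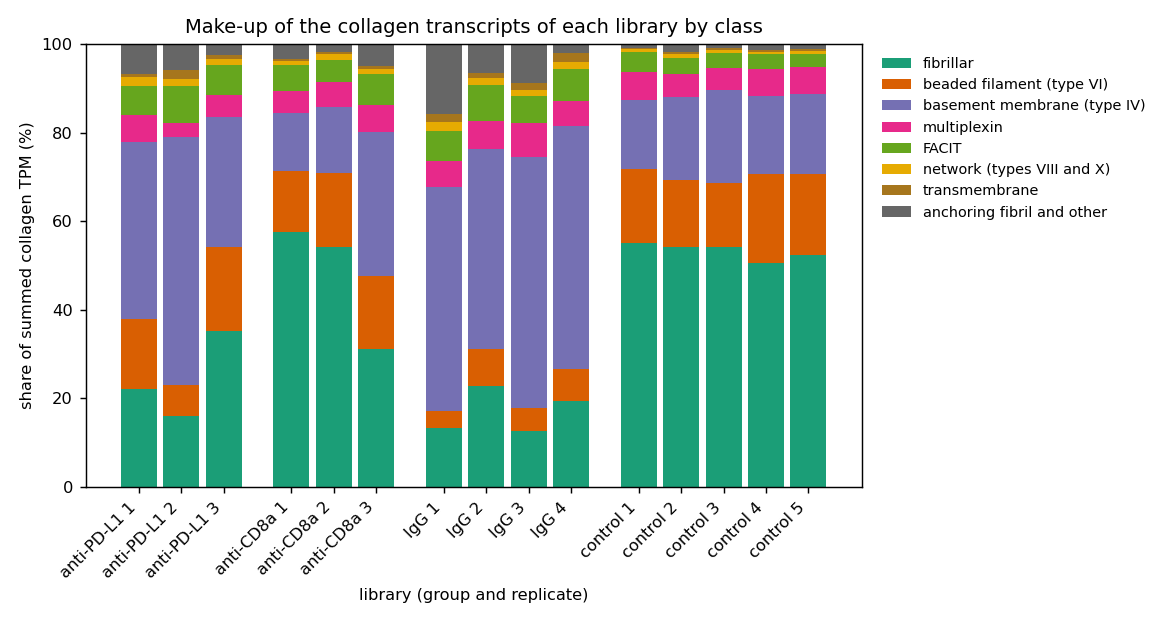
Share of the summed collagen TPM held by each class of chain (vertical axis, %) in each of the 15 libraries (horizontal axis, by group and replicate). Type IV chains held 45.2% to 56.6% in the IgG libraries and 15.4% to 21.0% in the control libraries, and fibrillar chains held 12.7% to 22.8% in IgG and 50.6% to 55.2% in control.

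Fibrillar chains held 24.5% ± 9.78 of collagen TPM in anti-PD-L1, 47.6% ± 14.3 in anti-CD8a, 17.0% ± 4.90 in IgG and 53.3% ± 1.85 in control (SD). Type IV chains held 41.7% ± 13.5 in anti-PD-L1, 20.3% ± 10.6 in anti-CD8a, 51.8% ± 5.11 in IgG and 18.1% ± 2.02 in control. The plot of make-up by library shows that the 4 IgG libraries and the 5 control libraries did not overlap for either class. As summed levels, fibrillar chains came to 8.70 ± 3.24 TPM in IgG and 115 ± 22.1 TPM in control, and type IV chains to 25.9 ± 0.241 TPM in IgG and 39.6 ± 11.2 TPM in control. Between these classes the fibrillar sum therefore differed more, with a smaller difference of the type IV sum in the same direction. Type VI chains held 6.19% ± 1.98 in IgG and 16.9% ± 2.34 in control, with sums of 3.16 ± 1.25 and 36.4 ± 8.44 TPM. The 3 other genes held 8.27% ± 5.71 in IgG and 1.25% ± 0.375 in control, with sums of 4.20 ± 2.91 and 2.67 ± 0.733 TPM. FACIT chains held 7.04% ± 0.781 in IgG and 3.57% ± 0.499 in control, and network chains 1.71% ± 0.238 in IgG and 0.687% ± 0.127 in control, while the summed level of each was lower in IgG, at 3.57 against 7.56 TPM for FACIT and 0.863 against 1.47 TPM for network.

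IgG set against control addressed tumour-bearing muscle under the isotype antibody. Of the 34 collagen genes tested, 27 fell and 2 rose in IgG relative to control, where 58.5% of all 14372 genes tested were called, 28.4% lower and 30.2% higher (edgeR quasi-likelihood test, Benjamini-Hochberg adjusted p under 0.05 over all genes). The median log2 fold change was -1.88 over the collagen genes and -0.02 over all genes. All 10 fibrillar genes tested fell, as did all 4 type VI genes and both multiplexins, 4 of 5 type IV genes, 5 of 7 FACIT genes and 1 of 2 network genes. The 2 transmembrane genes tested, Col13a1 and Col23a1, were not called, and the 2 others split, with Col28a1 lower and Col7a1 higher. Leaving out any 1 library left 26 to 28 genes lower, and 27 of the 29 calls held under every alternative run.

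The chains of types I and III, which make up the bulk of connective tissue, were among those that fell most. Col1a1, the main chain of type I collagen, had 2.67, 5.96, 1.51 and 3.60 CPM in IgG, against 102, 108, 140, 69.8 and 84.1 CPM in control. Every IgG library lay far below every control library, and the log2 fold change was -4.87 ± 0.53 (SE, edgeR adjusted p = 2.60e-06). Col1a2, its partner in the same triple helix, had 10.1, 19.5, 10.4 and 10.02 CPM in IgG, against 191, 176, 224, 135 and 154 CPM in control (-3.82 ± 0.40). IgG replicate 2 stood above the other IgG libraries for both genes and still lay far below control. Col3a1, which forms thin fibrils with type I, had 4.16, 10.7, 2.90 and 6.29 CPM in IgG, against 195, 154, 247, 174 and 216 CPM in control, the lowest fold change of any collagen gene at -5.03 ± 0.49.

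Promoter windows of 2 of these genes are shown because Col1a2 and Col3a1 fell together while their start regions differ in letters. They run from 250 bases before to 50 bases after the gene start, 5′ to 3′ on the gene's strand, from RefSeq on build GRCm38.p6, which need not be the build the authors used; 35 of the 44 genes had a window. Capitals mark CCAAT, the GC box GGGCGG and the TATA box TATAAA on either strand (ATTGG and CCGCCC are the first 2 read from the other strand), and none of the motifs overlap. Col1a2 lies at chr6:4505368-4505667 on the plus strand and Col3a1 at chr1:45311288-45311587 on the plus strand.
Col1a2: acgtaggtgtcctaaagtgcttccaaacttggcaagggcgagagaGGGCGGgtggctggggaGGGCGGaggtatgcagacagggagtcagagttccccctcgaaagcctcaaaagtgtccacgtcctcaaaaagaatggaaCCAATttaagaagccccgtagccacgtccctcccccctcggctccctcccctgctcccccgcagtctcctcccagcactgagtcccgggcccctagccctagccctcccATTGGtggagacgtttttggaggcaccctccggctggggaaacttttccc
Col3a1: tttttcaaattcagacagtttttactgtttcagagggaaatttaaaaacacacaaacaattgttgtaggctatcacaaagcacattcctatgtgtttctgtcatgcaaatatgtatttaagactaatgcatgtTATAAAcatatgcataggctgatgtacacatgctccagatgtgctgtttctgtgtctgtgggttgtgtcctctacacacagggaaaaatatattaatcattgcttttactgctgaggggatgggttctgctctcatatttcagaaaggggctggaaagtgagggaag
The Col1a2 window held 2 CCAAT and 2 GC box matches and was 61% G and C, while the Col3a1 window held 1 TATA box match, neither of the other motifs, and was 37.7% G and C. Of all 32851 promoter windows, 37.4% held CCAAT, 35.7% a GC box and 13.6% TATAAA, and of the 38 windows of collagen genes 34.2%, 60.5% and 13.2% did. These matches describe letters only.

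Type V chains, which start and size type I fibrils, fell less than type I. Col5a1 had 2.92, 3.55, 2.52 and 2.87 CPM in IgG, against 23.5, 21.5, 25.1, 24.4 and 27.8 CPM in control. Both groups were tight and apart, with a log2 fold change of -3.04 ± 0.33 (SE, edgeR adjusted p = 3.03e-06). Col5a2 (-2.48 ± 0.29) and Col5a3 (-2.11 ± 0.33) also fell. Col11a1 and Col11a2, the type XI chains best known from cartilage, were low throughout, at 0.753 ± 0.445 and 1.08 ± 0.538 CPM in IgG and 2.71 ± 1.35 and 3.18 ± 0.905 CPM in control (SD), and fell by 1.83 and 1.55 on the log2 scale. The minor fibrillar chains Col24a1 and Col27a1 fell by 2.69 and 1.98 on the log2 scale. They averaged 0.321 ± 0.189 and 0.184 ± 0.165 CPM in IgG and 2.11 ± 0.549 and 0.742 ± 0.138 CPM in control. Col27a1 reached the filter level of 0.533 CPM in 0 IgG and 5 control libraries, so other groups brought it into the test.

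All 4 type VI genes tested fell, with a median log2 fold change of -3.57, against -2.59 over the fibrillar genes. Col6a1 had 4.10, 6.56, 5.17 and 4.83 CPM in IgG, against 47.9, 43.6, 59.2, 50.3 and 64.1 CPM in control, and all IgG values lay far below all control values (-3.36 ± 0.33, SE). Col6a2 fell by 3.79 on the log2 scale. The log2 fold change of Col6a3, the long chain that completes the type VI unit, was -3.90 ± 0.55. Col6a6, which can take the place of Col6a3 in some tissues, fell by 3.26. Col6a4 and Col6a5 reached at most 4 and 5 counts in a library and were not tested.

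The basement membrane chains behaved differently from each other. Col4a1 had 87.6, 78.4, 89.9 and 66.6 CPM in IgG, against 114, 127, 226, 131 and 164 CPM in control. The groups did not overlap, and the log2 fold change was -0.92 ± 0.21 (SE, edgeR adjusted p = 0.00151). Col4a2, its partner in the common type IV helix, had 51.9, 59.4, 63.6 and 49.3 CPM in IgG, against 64.2, 79.8, 118, 72.3 and 94.9 CPM in control (-0.61 ± 0.20, adjusted p = 0.0141). The highest IgG value of Col4a2 lay only just below the lowest control value. The minor chains Col4a5 and Col4a3 fell more, by 2.91 ± 0.52 and 1.83 ± 0.40 on the log2 scale, at levels of 0.337 ± 0.156 and 0.613 ± 0.328 CPM in IgG and 2.57 ± 0.490 and 2.19 ± 0.920 CPM in control (SD). Col4a4 was not called, at -0.62 ± 0.28 (edgeR adjusted p = 0.0687).

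Col4a1 and Col4a2 are transcribed away from each other from starts 21 bases apart, so their promoter windows, shown for this reason, share sequence on opposite strands. Col4a1 lies at chr8:11312777-11313076 on the minus strand and Col4a2 at chr8:11312555-11312854 on the plus strand, with the same motifs in capitals.
Col4a1: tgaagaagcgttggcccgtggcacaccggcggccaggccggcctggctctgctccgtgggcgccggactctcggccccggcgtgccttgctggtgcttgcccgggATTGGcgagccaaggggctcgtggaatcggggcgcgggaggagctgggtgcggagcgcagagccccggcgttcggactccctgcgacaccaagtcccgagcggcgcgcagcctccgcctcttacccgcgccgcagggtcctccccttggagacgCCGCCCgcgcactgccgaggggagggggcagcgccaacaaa
Col4a2: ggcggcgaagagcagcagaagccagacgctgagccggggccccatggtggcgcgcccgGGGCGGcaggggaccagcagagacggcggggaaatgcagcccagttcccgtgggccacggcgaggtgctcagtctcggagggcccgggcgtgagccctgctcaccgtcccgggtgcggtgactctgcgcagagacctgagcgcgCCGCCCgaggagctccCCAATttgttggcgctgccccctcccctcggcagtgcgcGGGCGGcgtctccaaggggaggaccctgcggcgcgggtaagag
Both windows were rich in G and C, at 74% and 73.7%, and held CCAAT and GC box matches and no TATAAA. In the deposited TPM, Col4a1 stood over Col4a2 by 1.50 to 2.16 times in IgG and 1.90 to 2.20 times in control, with overlapping ranges. The pair overlaps on the genome, and the strand setting of the counting is not given in the sources used here, so reads near the shared start cannot be assigned with certainty. Other annotated features overlap the tested genes Col1a2, Col4a3, Col4a5, Col5a1, Col5a2, Col6a3, Col6a6, Col12a1, Col13a1, Col14a1, Col15a1, Col18a1, Col20a1, Col22a1 and Col24a1 as well. They are antisense, processed, unclassified or sense-overlapping transcripts, pseudogenes, an rRNA at Col4a3 and the protein-coding Slc19a1 at Col18a1. At Col1a2, Col4a3, Col4a5, Col5a2, Col6a3, Col20a1 and Col24a1 such a feature lies on the same strand, where a strand setting would not separate reads. Reads at these overlaps cannot be assigned with certainty either.

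Among FACIT chains the directions differed. Col9a1, best known from cartilage type IX collagen, fell by 2.61 ± 0.52, Col14a1, a fibril-associated chain of tendon and skin, by 2.03 ± 0.34, and Col16a1 by 1.92 ± 0.25 on the log2 scale (SE). Col22a1, a chain of the muscle-tendon junction, had 5.03, 6.98, 5.42 and 4.46 CPM in IgG, against 10.04, 13.8, 13.4, 10.7 and 12.5 CPM in control, with no overlap (-1.14 ± 0.28). Col12a1 fell by 1.00 ± 0.36, but its groups overlapped and the call was lost without control replicate 2 or 3, or IgG replicate 1, 2 or 4. Col20a1 was not called (-0.11 ± 0.30).

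Col19a1, a chain made in differentiating muscle cells and in neurons, went the other way. It had 3.17, 2.23, 1.70 and 0.977 CPM in IgG, against 0.280, 0.354, 0.230, 0.270 and 0.446 CPM in control. Every IgG library lay above every control library, and the log2 fold change was 2.63 ± 0.46 (SE, edgeR adjusted p = 0.000152). It was the only collagen gene tested that reached the filter level of 0.533 CPM in no control library, so it entered the test through other groups. Col19a1 and Col9a1 are neighbouring protein-coding genes on opposite strands in the GENCODE M21 annotation, yet they changed in opposite directions. The promoter window of Col19a1 lies at chr1:24587388-24587687 on the minus strand and held none of the 3 motifs. The window of Col3a1, which fell, also lacked CCAAT and the GC box, and no link of motifs to direction was tested.
Col19a1: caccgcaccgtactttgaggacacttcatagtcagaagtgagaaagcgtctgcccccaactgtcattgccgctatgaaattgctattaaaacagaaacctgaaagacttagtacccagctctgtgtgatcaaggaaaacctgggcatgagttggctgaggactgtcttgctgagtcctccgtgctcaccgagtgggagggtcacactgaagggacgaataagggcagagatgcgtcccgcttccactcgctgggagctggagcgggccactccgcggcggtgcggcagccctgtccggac
Its G and C content was 56.3%.

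Of the other classes, Col15a1, a multiplexin of the muscle basement membrane zone, had 3.10, 5.72, 5.29 and 4.76 CPM in IgG, against 30.7, 26.8, 35.0, 30.6 and 37.0 CPM in control, with the groups far apart (-2.76 ± 0.30, SE). Col18a1, the second multiplexin and the source of endostatin, fell by 1.34 ± 0.29. The network chain Col8a1 fell by 1.04 ± 0.21 and Col8a2 was not called (-0.79 ± 0.35, edgeR adjusted p = 0.0649). Col28a1, a chain found around Schwann cells, fell by 1.73 ± 0.36. Col28a1 reached the filter level of 0.533 CPM in 5 control, 1 IgG, 1 anti-PD-L1 and 0 anti-CD8a libraries. It entered the test through control, so its fall is not independent of the filter. Col7a1, the anchoring fibril chain, averaged 8.89 ± 5.85 CPM in IgG and 4.25 ± 0.871 CPM in control, and its groups overlapped. Its rise (1.06 ± 0.39, edgeR adjusted p = 0.0262) was lost without IgG replicate 1, the highest library at 16.8 CPM (0.54), without control replicate 1 or 3, under upper-quartile scaling and with the replicate block.

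**Figure D2:**
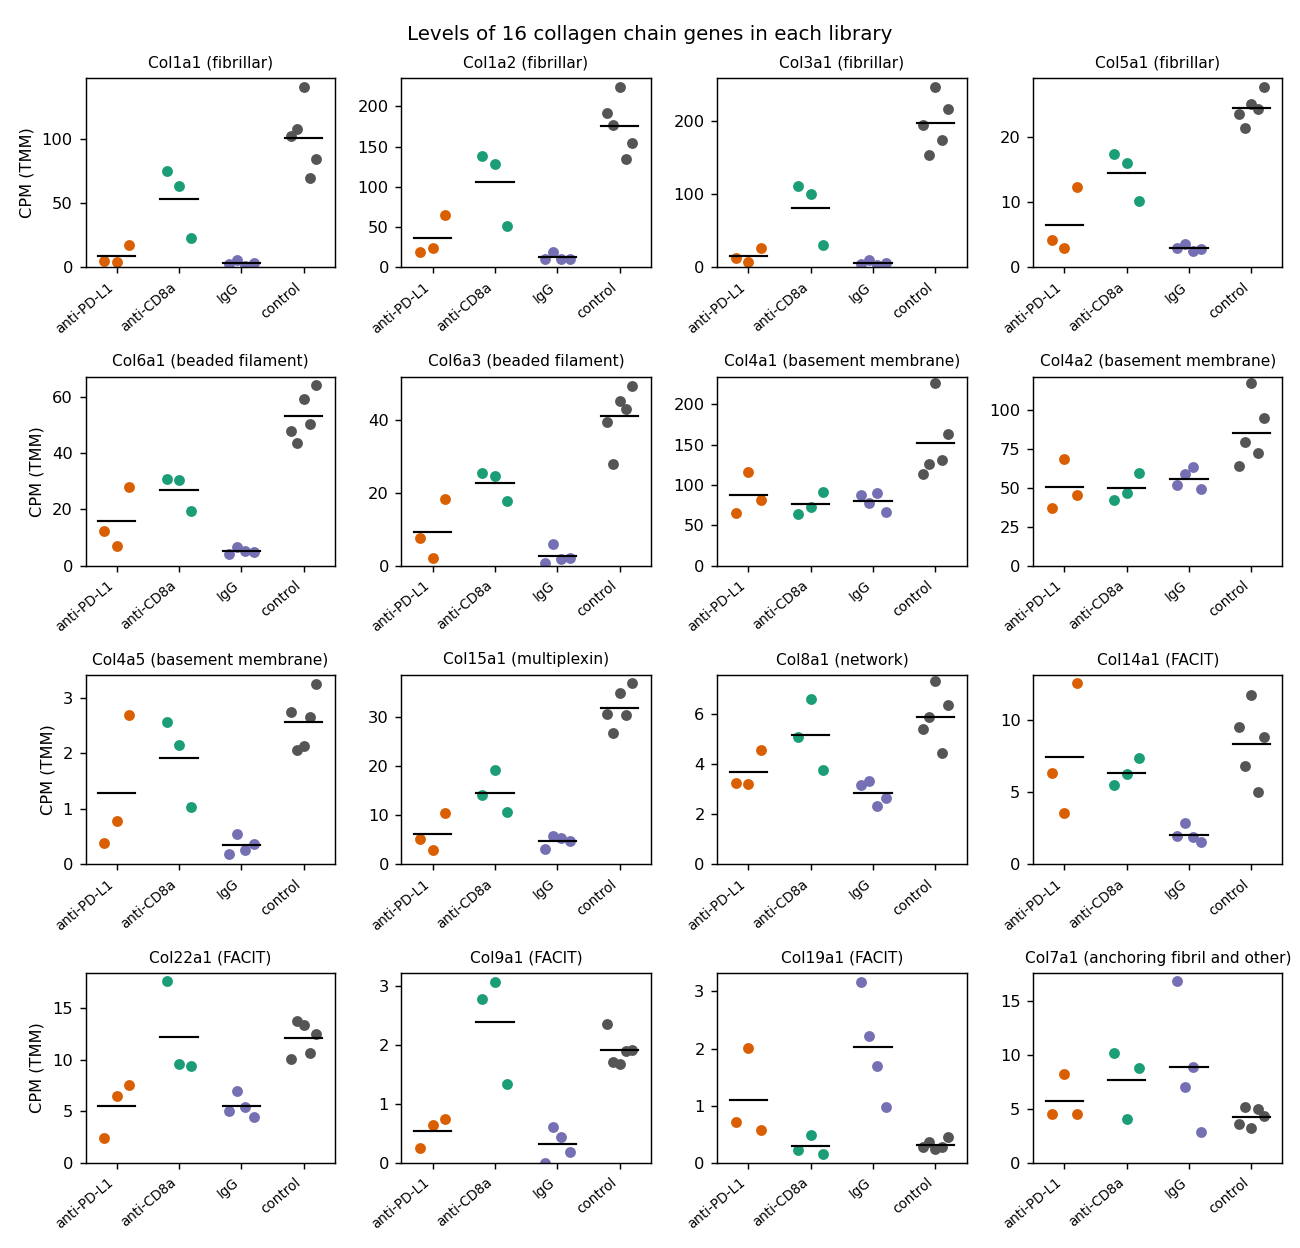
Level of 16 collagen genes in each library (vertical axes, TMM-scaled CPM, starting at 0), by group (horizontal axes). Points are libraries and lines are group means. Col1a1 lay at 1.51 to 5.96 CPM in IgG and 69.8 to 140 CPM in control, whereas Col19a1 lay at 0.977 to 3.17 CPM in IgG and 0.230 to 0.446 CPM in control.

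Anti-CD8a set against IgG, both with tumour, showed 20 of the 34 collagen genes higher and 1 lower, where 48% of all genes were called, 23.2% higher and 24.8% lower. The median log2 fold change was 1.3 over the collagen genes and 0.02 over all genes. This comparison shares the IgG libraries with the one before it, so its direction is not independent of it. The genes that rose were 9 of 10 fibrillar genes, all 4 type VI genes, 4 FACIT genes, 1 type IV gene, 1 network gene and 1 multiplexin. Of the 21 calls, 18 held under every alternative run.

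Col1a1 had 74.8, 63.2 and 22.5 CPM in anti-CD8a, against 2.67, 5.96, 1.51 and 3.60 CPM in IgG (log2 fold change 3.95 ± 0.53, SE, edgeR adjusted p = 5.16e-05). Anti-CD8a replicate 3 lay well below the other anti-CD8a libraries and still above every IgG library. Col3a1 had 112, 100.3 and 30.3 CPM in anti-CD8a, against 4.16, 10.7, 2.90 and 6.29 CPM in IgG (3.75 ± 0.49), and Col1a2 rose by 3.08 ± 0.41. Among the other fibrillar genes, Col24a1 rose by 2.81, Col27a1 by 2.45, Col5a1 by 2.29, Col11a2 by 1.54, Col5a2 by 1.45 and Col5a3 by 0.95 on the log2 scale, the last lost in 8 alternatives, among them each single anti-CD8a library left out. Col27a1 reached the filter level of 0.533 CPM in 2 anti-CD8a libraries and 0 IgG libraries. Col11a1 was not called (1.12 ± 0.53, edgeR adjusted p = 0.0907). Type VI genes rose by 2.39 (Col6a1) to 3.05 (Col6a3).

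The main basement membrane pair did not share this. Col4a1 had 64.8, 73.0 and 91.5 CPM in anti-CD8a, against 87.6, 78.4, 89.9 and 66.6 CPM in IgG, with full overlap (-0.08 ± 0.24, SE, edgeR adjusted p = 0.803). Col4a2 likewise gave -0.17 ± 0.22. Within type IV, Col4a5 rose by 2.48 ± 0.56, and Col4a3 (0.78 ± 0.45) and Col4a4 (0.11 ± 0.32) were not called. Of the FACIT genes, Col9a1 rose by 2.93 ± 0.55, Col16a1 by 1.68 ± 0.28, Col14a1 by 1.63 ± 0.37 and Col22a1 by 1.16 ± 0.31, the last lost without anti-CD8a replicate 1. Col19a1 was again opposite, at 0.218, 0.483 and 0.149 CPM in anti-CD8a, against 3.17, 2.23, 1.70 and 0.977 CPM in IgG. Its groups did not overlap, and it fell by 2.81 ± 0.56 on the log2 scale (edgeR adjusted p = 0.000790). Col15a1 rose by 1.63 ± 0.32, Col8a1 by 0.84 ± 0.23 (lost without anti-CD8a replicate 2), and Col18a1, Col7a1, Col28a1 and the transmembrane genes were not called.

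In anti-PD-L1 set against IgG few collagen genes were called, and a gene not called was not thereby shown to be unchanged. Of 34, 5 rose and 0 fell, where 5.5% of all genes were called, 3.96% higher and 1.54% lower; at an unadjusted p under 0.05, 11 were higher and 0 lower, where 14.4% of all genes were higher and 12.5% lower, and DESeq2 called 8 higher and 0 lower, where it called 12.6% of all genes in either direction. The 5 were Col1a2 (1.53 ± 0.40, SE), Col6a1 (1.62 ± 0.34), Col6a2 (1.46 ± 0.39), Col6a6 (2.07 ± 0.54) and Col14a1 (1.86 ± 0.37), with edgeR adjusted p-values of 0.0140 to 0.0427. The median log2 fold change of the collagen genes was 0.24, against 0.01 over all genes. None of the 5 calls held under every alternative: without anti-PD-L1 replicate 3 no collagen gene was called, leaving out IgG replicate 1, 3 or 4 left 1, 2 or 1, and leaving out replicate 2 of IgG gave 11 and of anti-PD-L1 10.

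Anti-PD-L1 replicate 3 stood above its group for all 5 of these genes, and without it the log2 fold change was 0.79 for Col1a2, 0.92 for Col6a1, 0.89 for Col6a2 and 0.83 for Col6a6. Col1a2 had 19.6, 23.6 and 64.8 CPM in anti-PD-L1, against 10.1, 19.5, 10.4 and 10.02 CPM in IgG, so the lowest anti-PD-L1 library lay beside the highest IgG library. Col1a1 had 5.34, 3.94 and 17.8 CPM in anti-PD-L1, against 2.67, 5.96, 1.51 and 3.60 CPM in IgG, and was not called (1.39 ± 0.52, SE, edgeR adjusted p = 0.108). Col14a1 had 6.29, 3.51 and 12.5 CPM in anti-PD-L1, against 1.92, 2.83, 1.89 and 1.53 CPM in IgG, with no overlap. Col6a1 had 12.5, 7.07 and 28.0 CPM in anti-PD-L1, against 4.10, 6.56, 5.17 and 4.83 CPM in IgG, also without overlap, whereas Col6a2 and Col6a6 overlapped. Col4a1 (0.12 ± 0.23) and Col4a2 (-0.15 ± 0.22) were not called, nor was Col19a1 (-0.86 ± 0.47, adjusted p = 0.241).

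**Figure D3:**
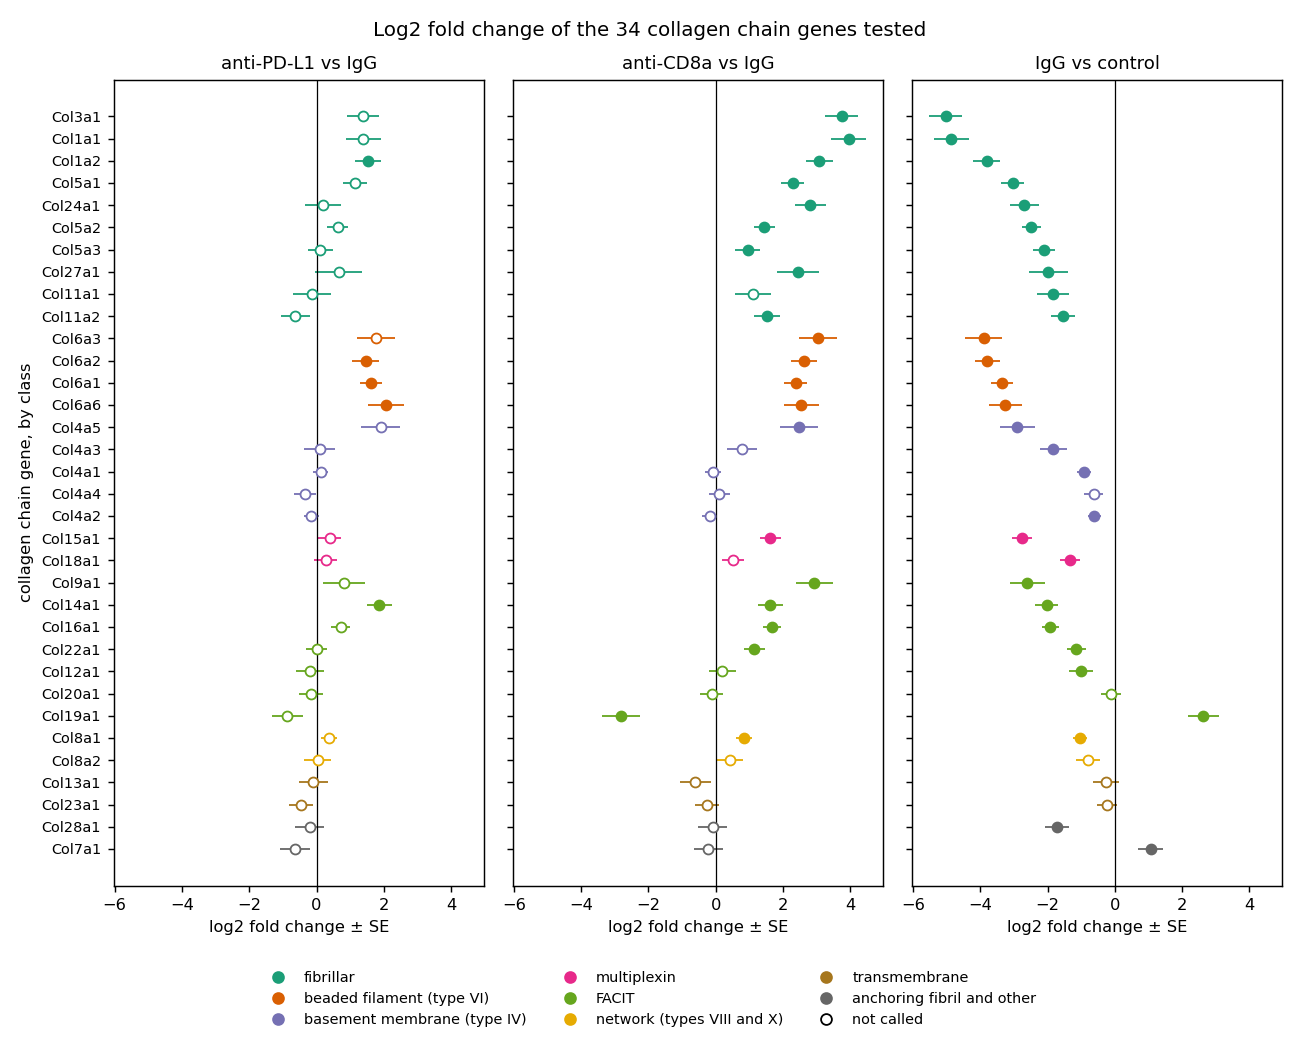
Log2 fold change with standard error (horizontal axes) of the 34 tested collagen genes (vertical axis, ordered by class and by IgG vs control) in 3 comparisons. Filled points passed the test and open points did not: 5 genes in anti-PD-L1 vs IgG, 21 in anti-CD8a vs IgG and 29 in IgG vs control were filled.

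The anti-PD-L1 and anti-CD8a groups were also set against each other and against control. Relative to anti-CD8a, anti-PD-L1 had 11 collagen genes lower and 1 higher, where 19.7% of all genes were called, 7.64% lower and 12.1% higher. Col1a1 was lower by 2.56 and Col3a1 by 2.37 on the log2 scale, with Col1a1 at 5.34, 3.94 and 17.8 CPM in anti-PD-L1 and 74.8, 63.2 and 22.5 CPM in anti-CD8a, without overlap. The gene that was higher was Col19a1 (1.95 ± 0.58, SE), a call lost when anti-PD-L1 replicate 2 (1.17) or anti-CD8a replicate 1 or 3 was left out. Of the 12 calls, 4 held under every alternative run (Col1a1, Col3a1, Col11a2 and Col24a1), and leaving out single libraries gave 4 (without anti-CD8a replicate 1) to 18 (without anti-PD-L1 replicate 3) lower. There were 5 lower without anti-PD-L1 replicate 1 or 2 or anti-CD8a replicate 2.

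Relative to control, 24 collagen genes fell and 1 rose in anti-PD-L1, where 34.7% of all genes were called, 13.9% lower and 20.8% higher. Of the 25 calls, 17 held under every alternative run. The type IV genes called lower were 4, and 1 without anti-PD-L1 replicate 1. Col3a1 fell by 3.66 ± 0.51 and Col1a1 by 3.48 ± 0.54 on the log2 scale (SE), while Col14a1 was not called (-0.16 ± 0.33). Col19a1 rose by 1.77 ± 0.49, but was no longer called once replicate 2 of anti-PD-L1, its highest library at 2.01 CPM, was left out (1.00).

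In anti-CD8a relative to control, edgeR called 0 collagen genes, where 0.0139% of all genes were called, 0.00696% lower and 0.00696% higher. Of the 34 collagen genes, 29 had a negative log2 fold change, with a median of -0.72 against 0.01 over all genes, and 12 were lower and 0 higher at an unadjusted p under 0.05, where 3.47% of all genes were lower and 4.25% higher. For 12 genes the groups did not overlap, all of them lower in anti-CD8a, where 4.38% of all genes lay apart in that direction and 5.18% in the other. Among the 12 were Col3a1, Col5a1, Col6a1, Col15a1, Col4a1 and Col4a2. Col6a1, for example, had 30.9, 30.6 and 19.6 CPM in anti-CD8a, against 47.9, 43.6, 59.2, 50.3 and 64.1 CPM in control (-0.97 ± 0.32, SE, edgeR adjusted p = 0.428). Col28a1 had 0.327, 0.429 and 0.495 CPM in anti-CD8a, against 1.18, 1.89, 1.96, 0.974 and 1.47 CPM in control (-1.82 ± 0.39, edgeR adjusted p = 0.183). It reached the filter level of 0.533 CPM in 0 anti-CD8a and 5 control libraries and entered the test through control. DESeq2 called 2 genes lower, Col4a1 and Col28a1, and a fit of these groups alone called 4. The test therefore does not show that collagen levels in anti-CD8a equalled those in control.

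Ratios within a library do not depend on the scaling between libraries. Col1a1 over Col1a2, the chains of 1 helix, stood at 0.240, 0.146 and 0.235 in anti-PD-L1, at 0.474, 0.452 and 0.375 in anti-CD8a, at 0.186, 0.267, 0.121 and 0.268 in IgG, and at 0.471, 0.539, 0.549, 0.455 and 0.474 in control, on the TPM scale. The anti-PD-L1 and IgG libraries all lay below the anti-CD8a and control libraries. The summed fibrillar over summed type IV ratio was 0.287 to 1.21 in anti-PD-L1, 0.961 to 4.35 in anti-CD8a, 0.224 to 0.504 in IgG and 2.58 to 3.59 in control. Anti-CD8a replicate 3 alone gave the low end of its group, the other anti-CD8a libraries lying at 3.59 and 4.35. Col6a3 over Col6a1 averaged 0.525 ± 0.095 in anti-PD-L1, 0.864 ± 0.192 in anti-CD8a, 0.438 ± 0.205 in IgG and 0.832 ± 0.260 in control (SD).

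**Figure D4:**
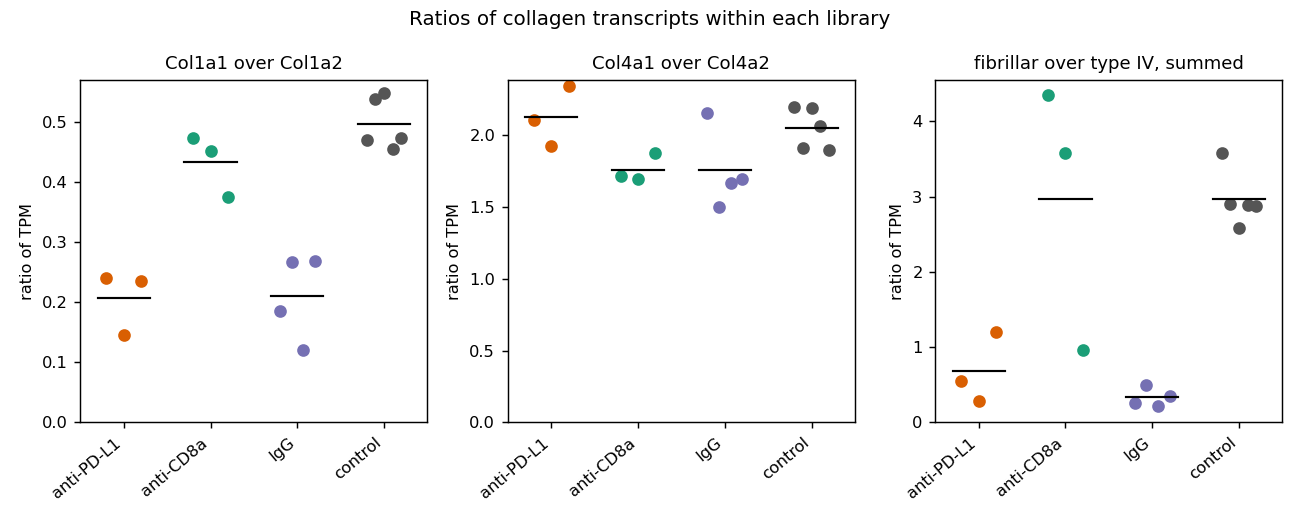
Ratios of TPM within each library (vertical axes, starting at 0) by group (horizontal axes), with group means as lines. Col1a1 over Col1a2 lay at 0.121 to 0.268 in IgG and 0.455 to 0.549 in control, and Col4a1 over Col4a2 at 1.50 to 2.16 in IgG and 1.90 to 2.20 in control.

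Genes that fold, trim, bind and break down collagen were counted in lists. Their counts in IgG relative to control stand beside 28.4% of all genes lower and 30.2% higher, those in anti-CD8a relative to IgG beside 24.8% lower and 23.2% higher, and those in anti-PD-L1 relative to IgG beside 1.54% lower and 3.96% higher. In IgG relative to control, 8 of the 18 tested genes of procollagen folding and modification fell and 5 rose, the rising genes at a share near that of all genes (median log2 fold change -0.37). Serpinh1, the collagen chaperone HSP47, averaged 16.5 ± 4.41 CPM in IgG and 84.2 ± 21.4 CPM in control (-2.35 ± 0.24, SE). Colgalt2, which adds galactose to collagen, fell by 2.37 and P3h3, a partner of lysyl hydroxylase, by 1.63, while the secretion factors Mia2 and Mia3 rose by 1.33 and 1.14 on the log2 scale. In anti-CD8a relative to IgG 6 of the 18 rose, Serpinh1 by 1.71 ± 0.25 among them, and 4 fell. In anti-PD-L1 relative to IgG, edgeR called 0 of the 18, where 5 were higher and 2 lower at an unadjusted p under 0.05 and DESeq2 called 1 in each direction. Leaving out IgG replicate 2 gave 4 higher and 1 lower, and leaving out anti-PD-L1 replicate 2 gave 2 in each direction.

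Of 11 tested genes of procollagen processing and cross-linking, 7 fell and 2 rose in IgG relative to control. Pcolce, which speeds removal of the C-propeptide, averaged 5.49 ± 1.18 CPM in IgG and 36.2 ± 5.00 CPM in control (-2.72 ± 0.26, SE). Bmp1, the C-proteinase itself, fell by 1.90 ± 0.20 and the cross-linking enzyme Loxl2 by 2.65 ± 0.31. The N-proteinase Adamts2 and the lysyl oxidase Lox rose, by 1.72 and 1.3. In anti-CD8a relative to IgG, 6 rose and 2 fell, with Pcolce higher by 2.06 ± 0.27 and Adamts2 and Lox lower by 2.31 and 1.95 on the log2 scale. Relative to IgG, 4 rose and 0 fell in anti-PD-L1: Bmp1, Loxl1, Pcolce and Pcolce2, by 0.93 to 1.38. These calls depended on single libraries, with 0 left without anti-PD-L1 replicate 1 or 3 and 1 left without IgG replicate 1 or 4.

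Of 8 tested collagen receptors, 4 fell and 1 rose in IgG relative to control, with the fibrillar collagen receptor tyrosine kinase Ddr2 down by 1.80 ± 0.33, the uptake receptor Mrc2 by 1.79 ± 0.34 and Itga11 by 1.45 ± 0.57 on the log2 scale (SE). The Itga11 call was lost without control replicate 1, 2, 4 or 5 or IgG replicate 1, 3 or 4. Ddr2 rose by 1.62 ± 0.36 in anti-CD8a and by 1.42 ± 0.36 in anti-PD-L1, each relative to IgG, and the call in anti-PD-L1 was lost without anti-PD-L1 replicate 3 (0.83) or 1 or IgG replicate 1, 3 or 4. Of 8 tested genes of collagen breakdown and its inhibitors, 3 fell and 1 rose in IgG relative to control: Mmp14, the membrane collagenase, rose by 1.19 ± 0.19, Mmp9 fell by 1.49 ± 0.52, and the inhibitor Timp4 by 1.21 ± 0.27. Without IgG replicate 4, 1 breakdown gene was lower, and the Mmp9 call was also lost without IgG replicate 3 or control replicate 5. Of 11 genes of TGF-beta signalling, a pathway known to raise collagen transcription, 4 rose and 2 fell, so 6 of 11 were called, near the 58.5% of all genes, and 1 fell when any 1 library other than IgG replicate 1 was left out. The inhibitor Smad7 rose by 1.54 ± 0.22 and the signal carrier Smad3 fell by 2.21 ± 0.33, and in anti-CD8a relative to IgG both moved the opposite way, by -1.13 and 1.82. In anti-PD-L1 relative to IgG, edgeR called 0 of the 8 breakdown genes and 0 of the 11 TGF-beta genes. At an unadjusted p under 0.05, 2 breakdown genes were higher and 1 TGF-beta gene lower, and DESeq2 called 2 breakdown genes higher and 0 TGF-beta genes. Without anti-PD-L1 replicate 2, 1 breakdown gene was called higher and 1 TGF-beta gene lower; leaving out IgG replicate 2, or else replicate 1 of anti-PD-L1, also gave 1 breakdown gene higher.

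Marker genes of cell types were counted as well, and only some lists moved as the collagens did. In anti-PD-L1 relative to IgG the median log2 fold change was 1.82 over the fibroblast markers and 0.24 over the collagen genes. The part of these cell types in the collagen results was not tested. The shares of all genes called are those given with the pathway lists. Of 10 fibroblast markers, 9 fell in IgG relative to control, with a median log2 fold change of -2.56; none of the 10 was at 0 in any group. Pi16 averaged 1.73 ± 0.611 CPM in IgG and 23.8 ± 4.10 CPM in control (-3.77 ± 0.48, SE), and Clec3b and Cd248 fell by 3.31 and 3.20 on the log2 scale. Of the other markers, Dcn, the most abundant, was not called at 576 ± 83.5 CPM in IgG and 628 ± 101 CPM in control (-0.12 ± 0.15), and Pdgfra fell by 0.70 ± 0.16 (these 2 markers were singled out after their values were seen). The summed fibroblast markers, which Dcn dominates, overlapped at 505 to 710 CPM in IgG and 696 to 1097 CPM in control. In anti-CD8a relative to IgG 8 of the 10 rose, with Pi16 higher by 3.64 ± 0.50, while Pdgfra (-0.03 ± 0.18) and Dcn (-0.14 ± 0.17) were not called. In anti-PD-L1 relative to IgG all 10 rose, Dcn by 0.86 ± 0.17 and Pdgfra by 0.97 ± 0.18, with summed levels of 1055 to 1394 CPM in anti-PD-L1 and 505 to 710 CPM in IgG; 6 stayed called without IgG replicate 1 or 3, 2 without anti-PD-L1 replicate 3, and 0 in a fit of these groups alone.

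Tendon cell markers were lower for 5 of 7 in IgG relative to control and higher for 3 of 7 in anti-CD8a relative to IgG. Kera, a tendon and cornea proteoglycan, averaged 0.168 ± 0.142 CPM in IgG and 6.17 ± 2.45 CPM in control (-5.13 ± 0.65, SE), while Tnmd fell by 3.80 and Comp by 2.03 on the log2 scale. Summed tendon markers were 67.8 to 115 CPM in IgG and 133 to 294 CPM in control. All 8 macrophage markers fell in IgG relative to control and rose in anti-PD-L1 relative to IgG, and 6 rose in anti-CD8a relative to IgG, with sums of 89.2 to 205 CPM in anti-PD-L1, 39.3 to 89.3 CPM in anti-CD8a, 20.8 to 37.6 CPM in IgG and 56.0 to 92.5 CPM in control. Without anti-CD8a replicate 3, 2 of those 6 calls were left. Folr2 fell by 3.90 and Cd163 by 1.47 on the log2 scale in IgG relative to control, and Adgre1 averaged 0.797 ± 0.270 CPM in IgG and 3.19 ± 0.815 CPM in control. Endothelial and mural markers, which belong to cells that make type IV collagen, moved by less: 4 of 10 and 3 of 9 fell and 1 of each rose in IgG relative to control, with median log2 fold changes of -0.38 and -0.40, against 28.4% of all genes lower and 30.2% higher. The endothelial count of 4 was 0 without IgG replicate 1 or control replicate 5 and 2 without IgG replicate 3 or 4 or control replicate 2, and the mural count of 3 was 5 without IgG replicate 2. Vwf rose by 0.93 and Tek and Cdh5 fell by 0.75 and 0.61 among endothelial markers, and Rgs5, Cspg4 and Kcnj8 fell by 0.95, 0.87 and 0.82 among mural markers. Of 6 Schwann cell markers 4 fell, S100b by 2.80 ± 0.49 and Mbp by 1.21, and 2 stayed called without IgG replicate 3 or 4 or control replicate 3 or 5. Of 4 satellite cell markers Cdh15 rose by 1.19 and Pax7 fell by 1.08, the Pax7 call being lost without IgG replicate 1 or 4 or control replicate 2 or 5. Cartilage markers were near 0 apart from Sox9 (1.89 ± 0.56 in IgG relative to control), with Matn1 at 0 in every library, and of 3 epithelial markers tested Krt8 and Krt18 rose in IgG relative to control, at 2.28 ± 3.02 and 2.45 ± 2.49 CPM in IgG and 0.212 ± 0.111 and 0.414 ± 0.268 CPM in control. Without IgG replicate 4 the calls of Sox9 (0.99), Krt8 (1.88) and Krt18 (1.58) were lost. Of 6 muscle fibre markers, Mylpf, Acta1 and Ckm fell in IgG relative to control, by 1.24, 0.84 and 0.53, the Ckm call being lost without IgG replicate 3 or 4 or control replicate 1 or 4.

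The 10 collagen genes not tested were Col2a1, Col4a6, Col6a4, Col6a5, Col9a2, Col9a3, Col10a1, Col17a1, Col25a1 and Col26a1. None exceeded 14 counts in a library (Col4a6, in control replicate 5), and 3 counts, the upper limit that a count of 0 leaves by counting error alone, correspond to 0.129 to 0.189 CPM. Col2a1 and Col10a1, the chains of cartilage, reached at most 6 and 2 counts. Of the 34 tested genes 22 reached the filter level in every library. Col27a1 reached it in no IgG library, Col24a1 in no anti-PD-L1 library, Col28a1 in no anti-CD8a library, and Col19a1 in no control or anti-CD8a library. A gene that was high in 1 group could therefore enter the test through that group.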

How the data were processed

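RNA-seq of total RNA from 15 tibialis anterior samples in 4 groups was used. The library kit was MGIEasy RNA Directional, per the labels' protocols; Trim Galore, STAR 2.7.9a and RSEM 1.3.3 are named in the submitters' processing notes. Genome build, annotation and strand setting are not given in the sources used here. The deposited tables of the authors hold RSEM expected counts, which split shared reads between genes (19.8% to 22.8% of non-zero values were not whole), and deposited TPM values. FPKM was not used. Of 55416 gene IDs, 52083 matched a symbol in the gene name table; IDs without one held at most 0.386% of a library.

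Expected counts were rounded and fitted in 1 model of all 4 groups with edgeR 4.0.16 (R 4.3.3, limma 3.58.1): TMM scaling, filterByExpr by group (14372 genes left), quasi-likelihood test with 11 residual degrees of freedom, Benjamini-Hochberg adjustment over all genes of a comparison, called at 0.05. SE is the absolute log2 fold change over the square root of F. The script was tested on simulated data. Alternatives were DESeq2 1.42.0, other scalings, no filter, a replicate block, the compared groups alone and single libraries left out. The members, the gene lists and the tests were chosen with earlier results of these data known. Every collagen gene is named or counted. From each pathway and marker list up to 3 called genes of largest absolute fold change in IgG relative to control are named; a further few are named from their list's counts. Some genes that this rule names are not reported here. In other comparisons the named genes are given only where the text needs them. Libraries were not paired by replicate number, and the labels give no litter, day or batch.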

Additional observations from a re-analysis of the deposited data

Results flagged for a closer look

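For 3 collagen genes there was 1 IgG library whose gap to the nearest other IgG library was large for the range of its group, out of 68 gene and group pairs examined; chance alone gives about 1 in 20. Col1a2 was 19.5 CPM in IgG replicate 2 and 10.02 to 10.4 CPM in the other IgG libraries. Col24a1 was 0.602 CPM in IgG replicate 2 and 0.189 to 0.248 CPM in the others. Col23a1 was 3.66 CPM in IgG replicate 1 and 1.39 to 1.77 CPM in the others.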

How the results depend on the processing

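No collagen call changed direction under any alternative run. In IgG relative to control, upper-quartile scaling and the replicate block each gave 1 gene higher in place of 2, and leaving out 1 library gave 1 to 2 higher and 26 to 28 lower. In anti-PD-L1 relative to IgG, DESeq2 gave 8 higher, no filter 10, the replicate block 0, the compared groups alone 0, and leaving out the second library of both 13 higher and 1 lower; leaving out 1 library gave 0 to 11 higher and 0 to 1 lower. In anti-CD8a relative to IgG, leaving out 1 library gave 18 to 20 higher and 1 lower, and leaving out IgG replicate 2 with anti-CD8a replicate 3, a choice made after seeing the data, gave 20 and 1. In anti-PD-L1 relative to control, leaving out the second library of anti-PD-L1 and IgG gave 0 higher, and leaving out 1 library 0 to 1 higher and 17 to 26 lower. In anti-CD8a relative to control, DESeq2 gave 2 lower, no filter 3 and the compared groups alone 4, and leaving out 1 library 0. In anti-PD-L1 relative to anti-CD8a, the replicate block gave 7 lower, the compared groups alone 5 lower and 0 higher, leaving out both second libraries 7 lower and 0 higher, and leaving out 1 library 4 to 18 lower and 0 to 1 higher. The causes were not tested.

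Same-numbered libraries did not deviate together: of 19 pairs, 3 had a correlation over 0.1 (range -0.345 to 0.180) and 4 correlated best with their own number, so the block shares only a number. Upper-quartile scaling moved the median of all genes to -0.271 in IgG relative to control, 0.250 in anti-CD8a relative to IgG and 0.120 in anti-PD-L1 relative to IgG. At 15894804 to 22459348 counts a library, genes that reached about 0.533 CPM in too few libraries were not tested. A gene under that level in a whole group could still be tested.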
